A study of Homo sapiens with 3 samples.

Results

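Glucose uptake and glycolysis genes were examined for occupancy by the PRCC-TFE3 fusion protein in HK-2 cells. The 6 genes were *SLC2A1*, *HK2*, *PFKFB3*, *ENO1*, *PKM* and *LDHA*, and they were chosen by name, with their positions on genome build hg19. A peak is an interval in which the peak caller found an excess of ChIP tags (aligned reads), with input DNA as comparison. Its fold enrichment is the deposited ratio at the summit, its highest point. The background in this ratio need not be the input tags counted at that place. A peak of the narrowPeak list was counted for a gene when it lay inside the gene or within 10 kb of it, and a promoter was the gene start with 1 kb on either side. By this rule, 69 of the 109205 peaks of replicate 1 and 58 of the 81300 peaks of replicate 2 belonged to the 6 genes. Merged across the replicates, these peaks formed 73 of 117702 regions.

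Glycolysis converts glucose to pyruvate, and fermentation then reduces pyruvate to lactate. SLC2A1 (GLUT1) carries glucose across the plasma membrane, HK2 phosphorylates it, and PFKFB3 makes and removes fructose 2,6-bisphosphate, the activator of phosphofructokinase. ENO1 forms phosphoenolpyruvate, PKM forms pyruvate from it, and LDHA interconverts pyruvate and lactate. Many of these genes are known targets of hypoxia-inducible factor and MYC, and their increased use is a well-known trait of renal carcinoma. TFE3 belongs to the MiT/TFE family of basic helix-loop-helix leucine zipper factors, which bind E-box sequences with the core CACGTG. The fusion joins part of PRCC to TFE3 and keeps its DNA-binding part.

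The data comprised 2 HA-PRCC-TFE3 ChIP-seq libraries (replicates 1 and 2) and 1 input DNA library. All of them came from HK-2 cells, an established human renal proximal tubule line, that carried HA-tagged PRCC-TFE3 under a doxycycline-inducible (Tet-On) promoter, and all cells received 0.2 µg/mL doxycycline for 24 h. No uninduced cells or untagged cells enter the comparison, and the background is therefore input DNA from induced cells. ChIP peaks do not measure transcript levels. The library totals were 12235754 tags in replicate 1, 7418533 in replicate 2 and 21694930 in input DNA. The cell line identity could not be checked against marker expression with these data, and whether the inducible line was a clone is not given in the sources used here.

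To show the sequence at the promoters, the RefSeq promoter windows of GRCh38.p14 were used, because the genome at hand was not of the hg19 build of the peaks. All 6 genes matched, with 9 windows of 300 bases, since *HK2*, *PFKFB3* and *LDHA* each had more than 1 listed start. Each window held 250 bases before the start and 50 from the start on. The E-box core CACGTG, which reads the same on both strands, was present in 3 windows, 1 each for *HK2*, *PFKFB3* and *LDHA*, compared with 7.26% of all 35116 windows. The *HK2* window of the later start held 2 copies, which began 194 and 149 bases before the start. The *LDHA* window of the earlier start also held 2 copies, 185 and 87 bases before the start, and the *PFKFB3* window of the later start held 1 copy, 108 bases before it. Among all windows, 0.664% held at least 2 copies. The following are the 250 bases before each of these starts, shown for the genes whose windows held the motif, with CACGTG in capitals. They lie on the + strand at chr2:74834920-74835169, chr10:6202682-6202931 and chr11:18394313-18394562.
*HK2*, later start: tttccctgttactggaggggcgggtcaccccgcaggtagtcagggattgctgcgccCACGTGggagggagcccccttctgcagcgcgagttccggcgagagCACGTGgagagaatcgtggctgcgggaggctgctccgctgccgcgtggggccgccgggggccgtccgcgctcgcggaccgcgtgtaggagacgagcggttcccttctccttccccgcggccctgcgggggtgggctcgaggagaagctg
*PFKFB3*, later start: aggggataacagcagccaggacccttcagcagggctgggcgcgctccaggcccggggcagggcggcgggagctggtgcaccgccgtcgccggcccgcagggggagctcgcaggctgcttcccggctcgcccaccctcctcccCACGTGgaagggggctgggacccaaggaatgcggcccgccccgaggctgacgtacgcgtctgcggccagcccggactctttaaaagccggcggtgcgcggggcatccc
*LDHA*, earlier start: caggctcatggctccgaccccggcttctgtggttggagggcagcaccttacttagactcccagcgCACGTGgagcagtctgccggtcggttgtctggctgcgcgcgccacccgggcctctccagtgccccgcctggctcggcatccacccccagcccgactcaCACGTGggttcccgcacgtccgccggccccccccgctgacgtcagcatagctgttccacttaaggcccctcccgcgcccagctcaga

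The other windows of *HK2*, *PFKFB3* and *LDHA* held no CACGTG. The windows of *SLC2A1*, *ENO1* and *PKM* held none either. Each of these promoters had a peak in both replicates, but promoter peaks were counted within 1 kb on either side of the start. The shorter windows therefore do not cover all the sequence under those peaks. The 250 bases before the start of these genes, on the - strand at chr1:42958869-42959118, chr1:8878687-8878936 and chr15:72231191-72231440, are shown for comparison.
*SLC2A1*: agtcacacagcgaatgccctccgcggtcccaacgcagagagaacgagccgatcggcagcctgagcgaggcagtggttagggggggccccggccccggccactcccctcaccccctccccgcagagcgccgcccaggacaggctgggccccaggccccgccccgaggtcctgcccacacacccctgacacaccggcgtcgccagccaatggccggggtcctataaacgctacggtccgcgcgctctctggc
*ENO1*: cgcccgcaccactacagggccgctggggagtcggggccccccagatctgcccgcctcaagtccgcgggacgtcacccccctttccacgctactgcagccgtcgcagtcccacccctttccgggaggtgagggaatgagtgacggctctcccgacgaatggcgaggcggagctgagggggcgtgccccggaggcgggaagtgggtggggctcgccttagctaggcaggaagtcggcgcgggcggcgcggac
*PKM*: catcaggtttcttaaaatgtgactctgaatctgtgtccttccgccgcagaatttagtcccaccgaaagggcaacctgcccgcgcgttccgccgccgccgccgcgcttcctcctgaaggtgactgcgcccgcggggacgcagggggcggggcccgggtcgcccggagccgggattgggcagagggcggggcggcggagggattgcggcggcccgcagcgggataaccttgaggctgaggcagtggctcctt

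None of the 9 windows held the longer palindromic CLEAR element of lysosomal genes, which contains CACGTG and occurred in 0.353% of all windows. None held CATGTG or the AP-1 site TGAGTCA on either strand, which occurred in 11.1% and 4.95% of all windows. The windows were rich in G and C, with 65% to 78.3% compared with a median of 58.67% over all windows. A match is a description of the sequence and not a measured binding site, and a missing match says only that these letters were not in the window. Because coordinates were not converted between builds, the motif positions could not be placed under the peak summits.

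The first question was whether PRCC-TFE3 occupied the promoters of these genes. In 5 of the 6 genes (*SLC2A1*, *PFKFB3*, *ENO1*, *PKM* and *LDHA*), the promoter had a narrowPeak peak in both replicates, and the *HK2* promoter had a peak in replicate 1 only. The *HK2* count depends on the gene start used, since the gene as defined here is longer than the RefSeq gene and RefSeq lists a later start as well. Of all bins of 2 kb on chromosomes 1 to 22 and X, 4.92% had a peak in both replicates. This background includes intergenic DNA. Of the 180 bins of 2 kb in the 6 gene windows outside their promoters, 23.3% did. The share among all hg19 promoters was not analysed here, so the count is not a comparison with other genes. With the BED lists, the second kind of peak list deposited for each ChIP library, the number of promoters was also 5.

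**Figure D1:**
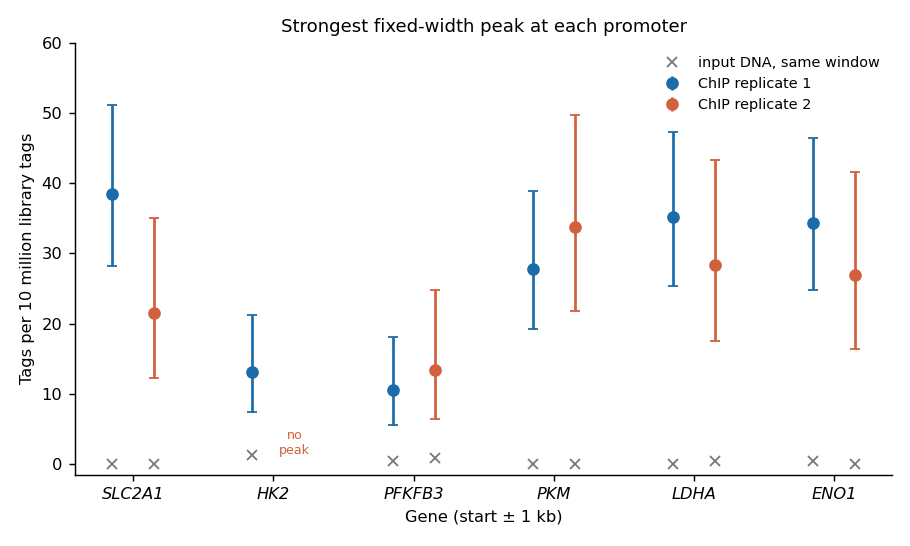
Tags per 10000000 library tags (y axis) in the strongest fixed-width peak within 1 kb of each gene start, for ChIP replicates 1 and 2 with 95% exact Poisson intervals, and for input DNA in the same windows (crosses). Input tags lie at or below 1.38 in all windows, and the intervals of the replicates overlap at every promoter with a peak in both.

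Tag counts at the promoters were then compared with input. In the strongest BED peak of the *SLC2A1* promoter, 47 tags were found in replicate 1 and 16 in replicate 2, or 38.4 (95% exact Poisson interval, 28.2 to 51.1) and 21.6 (12.3 to 35.0) per 10000000 tags of each library. At the *LDHA* promoter there were 43 and 21 tags, and at the *ENO1* promoter 42 and 20. After scaling, the values of these promoters were higher in replicate 1 with overlapping intervals, whereas the *PKM* promoter had 34 and 25 tags, or 27.8 and 33.7 on this scale. The *PFKFB3* promoter was the weakest of those found in both replicates, with 13 and 10 tags, or 10.6 and 13.5 on this scale. The *HK2* promoter had 16 tags in replicate 1 and no BED peak in replicate 2. In the same windows, input DNA, the deepest library, had 0 to 3 tags, with the highest number at *HK2*. A count of 0 input tags allows up to about 3 at a 95% upper limit taken alone, unlike the Poisson intervals above, which have both limits. The Poisson intervals cover counting error only.

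The next question was how the occupancy was distributed along the genes. Of the 73 regions, 54 (74.0%) were shared, that is, had a peak in both replicates, compared with 59.8% of all 117702 regions. Another 15 had a peak in replicate 1 only and 4 in replicate 2 only. Of the shared regions, 8 overlapped a promoter, 32 lay in the gene bodies beyond the promoters, 7 upstream and 7 downstream. All 6 genes had shared regions in the gene body. RefSeq on GRCh38 lists other genes or transcripts within 10 kb of each of the 6 genes. Which gene a flank region belongs to was not tested. The regions found in a single replicate had fold enrichments of 4.18 to 10.1 in replicate 1 and 4.01 to 7.42 in replicate 2, compared with medians of 7.49 and 7.32 over all peaks of each library. The BED lists held 54 and 43 peaks at the genes.

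**Figure D2:**
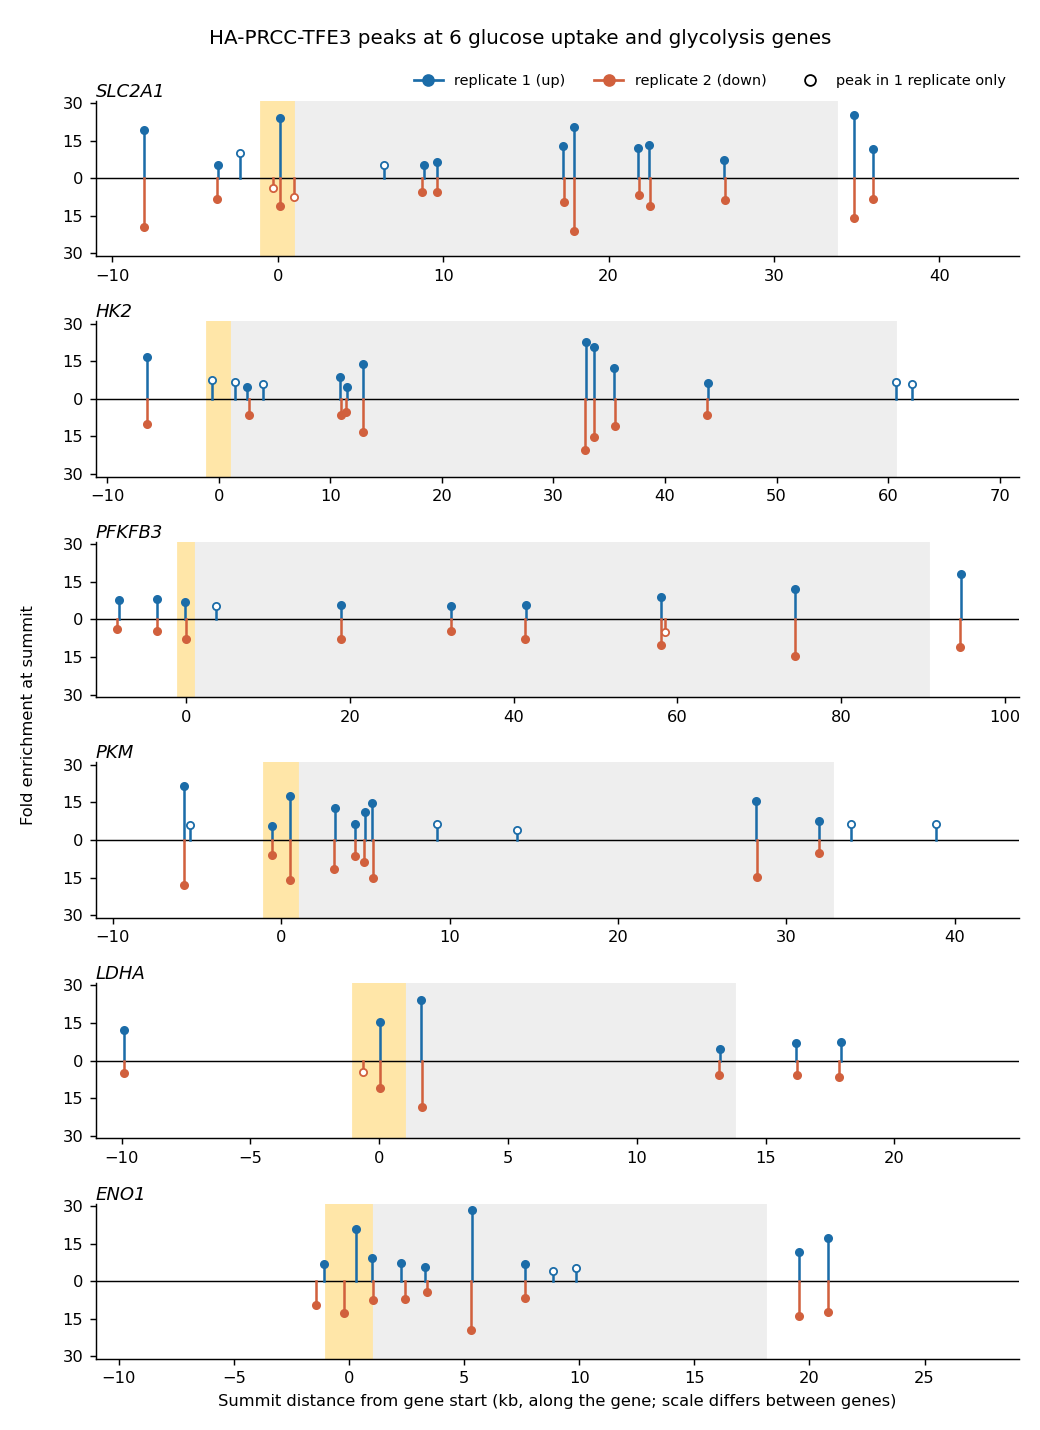
Fold enrichment at the summit (y axis, replicate 1 upward and replicate 2 downward) of each merged region against summit distance from the gene start in kb, along the gene, for the 6 genes. Grey marks the gene, yellow the promoter, and open circles the regions found in 1 replicate only. The highest shared region, by the lower value, lies inside the gene in all but *PKM*.

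*SLC2A1*, the glucose transporter (chr1:43391046-43424847, - strand), had 14 peaks in each replicate and 12 shared regions. At the promoter region (chr1:43424417-43424945), the fold enrichment was 24.1 in replicate 1 but 10.9 in replicate 2, with summits 135 and 157 bp after the gene start. Replicate 2 had further peaks on either side of it, at fold enrichments of 4.01 (309 bp before the start) and 7.42 (972 bp after it). By the lower value of both replicates, the promoter ranked behind 4 other regions. The highest was in the gene body (chr1:43406573-43407221), about 17.9 kb after the start, with values of 20.6 and 21.2, which was above 95.4% of all shared regions in the genome. It was followed by an upstream region (chr1:43432684-43433715), 8.08 kb before the start, at 19.3 in both replicates, and by a region just beyond the gene end (chr1:43389791-43390489), at 25.1 and 16.0. The strong regions were thus spread from the upstream flank to the downstream flank, and RefSeq lists the divergent transcript *SLC2A1-DT* within 10 kb of the gene.

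*HK2*, the hexokinase that traps glucose in the cell (chr2:75059782-75120486, + strand), had 14 peaks in replicate 1 and 9 in replicate 2, all 9 of them shared. The peak at its promoter (chr2:75059015-75059538) had a fold enrichment of 7.66 in replicate 1, at 628 bp before the start, and was not in the replicate 2 list. Another replicate 1 peak, 1429 bp after the start, had a value of 6.58. The gene as defined here spans 60705 bp, compared with 59233 bp in RefSeq on GRCh38, and its start may therefore differ from the RefSeq start. The later RefSeq start, whose window held CACGTG, lies 1043 bp after the earlier one, and where either lies relative to the peaks was not determined. The nearest shared region to the start lay 2.57 kb (replicate 1) and 2.72 kb (replicate 2) after it and was weak, at 4.56 and 6.62. The strongest regions were instead a pair in the gene body (chr2:75092018-75092913 and chr2:75093166-75093951), about 33 kb after the start. Their fold enrichments were 22.7 and 20.4 in the first, with 48 and 31 tags, and 20.7 and 15.3 in the other. A further region (chr2:75072438-75072934) had 13.9 and 13.2.

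*PFKFB3*, which sets the level of the phosphofructokinase activator (chr10:6186843-6277507, + strand), was the longest gene and had 10 peaks in each replicate and 9 shared regions. Its promoter region (chr10:6186386-6186959) was of middling strength, at 6.95 and 7.70, and its summits lay 95 and 50 bp before the start. The highest region (chr10:6260746-6261422) lay 74.3 kb into the gene, at 12.3 and 14.8, and the next was beyond the gene end (chr10:6281188-6281564), at 18.2 and 10.9. The next (chr10:6244634-6245027) had values of 9.09 and 10.2, with summits 57947 and 58013 bp after the start. In RefSeq on GRCh38, the later start of *PFKFB3*, whose window held CACGTG, lies 58011 bp after the earlier start. These distances were each measured within their own build, and the RefSeq gene is longer, at 181717 bp compared with 90665 bp, so the starts they are counted from may differ. In the remaining 6 shared regions, the promoter among them, the lower value of both replicates was 3.85 to 6.95.

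*ENO1*, the enolase (chr1:8921059-8939151, - strand), had 11 peaks in replicate 1 and 9 in replicate 2, and all 9 were shared. Its promoter overlapped 3 shared regions, more than any other gene here. The widest (chr1:8938599-8939678) spanned the gene start, at 20.7 and 12.7, and the BED lists divided it into 2 peaks in both replicates. At 182 bp before the start there were 27 tags in replicate 1 and 20 in replicate 2, and at 291 bp after it there were 42 and 20. The narrowPeak summits were placed on different ones of these, at 301 bp after the start in replicate 1 and at 237 bp before it in replicate 2. The other promoter regions (chr1:8940019-8940815 and chr1:8938028-8938278) had values of 6.95 and 9.60, and of 9.17 and 7.68. They overlapped the promoter only at its edges, and their summits lay outside it. These were 1075 and 1422 bp before the start in the first region, and 1018 and 1042 bp after it in the other. The highest region of all 6 genes in replicate 1 lay within *ENO1* (chr1:8933512-8934146), 5.33 kb after the start, at 28.4 in replicate 1 and 19.7 in replicate 2, with 58 and 32 tags. Downstream of the gene, a region (chr1:8918100-8918660) had 17.1 and 12.2.

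*PKM*, the pyruvate kinase (chr15:72491370-72524164, - strand), had 14 peaks in replicate 1 and 9 in replicate 2, and all 9 were shared. Its promoter held a strong region (chr15:72523452-72524093), with fold enrichments of 17.5 and 16.0 and summits 529 and 514 bp after the start. A weak one (chr15:72524582-72524802) lay 533 and 519 bp before the start, at 5.75 and 6.12. The highest region was in the upstream flank (chr15:72529790-72530261), 5.78 kb before the start, at 21.4 and 18.0. The summits of this region were 2 bp apart in the replicates. RefSeq lists *GRAMD2A* and *PARP6* within 10 kb of *PKM*. A region near the gene end (chr15:72495735-72496140) had 15.5 and 14.8. The early gene body held 4 shared regions between 3.15 and 5.43 kb after the start, with values from 6.22 to 15.3.

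*LDHA*, the lactate dehydrogenase subunit (chr11:18415936-18429765, + strand), was the shortest gene, with 6 and 7 peaks and 6 shared regions. The promoter region (chr11:18415725-18416210) was centred close to the start, with summits 27 and 29 bp after it, at 15.6 in replicate 1 and 11.03 in replicate 2. Replicate 2 alone had a further promoter peak (chr11:18415173-18415453), 612 bp before the start, at 4.49. A stronger region (chr11:18417210-18418046) followed 1642 and 1667 bp after the start, at 24.1 and 18.6, with 45 and 27 tags. The RefSeq starts of *LDHA* lie 1788 bp apart on GRCh38, and it was the window of the earlier start that held CACGTG. In the other 4 shared regions, the lower value of both replicates was 4.81 to 6.42. The highest of these (chr11:18433677-18434116), at 7.49 and 6.42, lay in the downstream flank. RefSeq lists *LDHC* within 10 kb of *LDHA*. The *LDHA* window also showed the limit of the 10 kb rule. Its outermost upstream region, 9.64 kb from the gene, had 12.3 and 5.13 and was counted, whereas the next, 10.2 kb from the gene, had 21.9 and 14.1 and was not.

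Next, the replicates were compared at the shared regions. The median fold enrichment of the 54 shared regions was 11.5 in replicate 1 and 8.88 in replicate 2, compared with 10.1 and 7.99 over all shared regions of the genome. In 23 of them (42.6%), the value was at least 10 in both replicates, compared with 32.0% of all shared regions. These regions comprised 5 each at *SLC2A1*, *HK2* and *PKM*, 4 at *ENO1* and 2 each at *PFKFB3* and *LDHA*. The value was higher in replicate 1 in 35 (64.8%) and in replicate 2 in 19, compared with 72.6% higher in replicate 1 over all shared regions. The summits of the replicates lay within 100 bp of each other in 46 regions, with a median distance of 34 bp. The largest distance, 538 bp, was that of the divided *ENO1* promoter region.

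**Figure D3:**
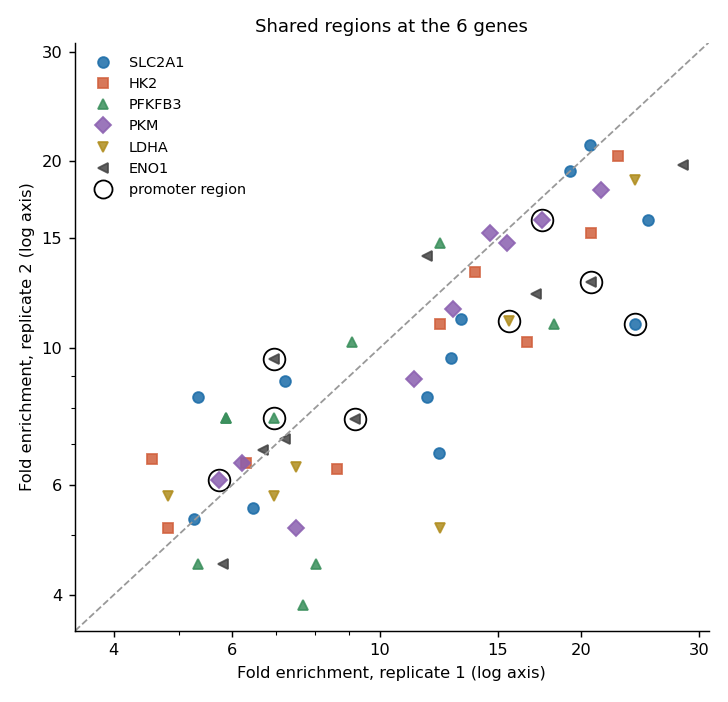
Fold enrichment of the 54 shared regions in replicate 1 (x axis) and replicate 2 (y axis), both on log axes, with a symbol for each gene and the dashed line marking equal values. Open rings mark the 8 promoter regions, of which the *SLC2A1* promoter, at 24.1 and 10.9, lies far below the line.

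The tags of matched BED peaks gave a count-based comparison of the libraries. Of 55655 BED peaks matched between the replicates, 38 lay at the 6 genes. None of these 38 differed between the replicates in an exact binomial test with Benjamini-Hochberg adjustment over all matched peaks, and neither did any other matched peak (0.00%). The lowest adjusted p of any peak was 1. At an unadjusted p below 0.05 there was 1 of the 38, compared with 2.20% of all matched peaks. It was the *SLC2A1* promoter, where replicate 2 contributed 25.4% of the tags, compared with 39.8% over all matched peaks (exact binomial p = 0.0202, adjusted p = 1). The test compares these 2 libraries and covers only peaks that passed in both lists, so large differences could not enter it.

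Finally, the number of peaks was set against the length of the genes. The 6 windows, 369.9 kb in all, held 18.7 peaks per 100 kb in replicate 1 and 15.7 in replicate 2, or 5.52 ± 0.473 (SD, n = 2) times the density of chromosomes 1 to 22 and X. Shared regions were densest at *ENO1* and *SLC2A1*, with 23.6 and 22.3 per 100 kb, and sparsest at *PFKFB3*, with 8.13. *LDHA*, *PKM* and *HK2* lay between them, with 17.7, 17.0 and 11.2. Relative to its own chromosome, the density was 9.32 times at *PKM*, 9.22 times at *LDHA* and 3.12 times at *PFKFB3*. This order depends on the list used, since with the BED lists *PKM* and *ENO1* each had 5 shared regions in place of 9. The whole-chromosome densities include DNA far from genes, and densities at other genes were not analysed here. Input DNA had no peak in any window, but its whole list held only 286 peaks. With so short a list, the lack of a peak in these windows says little about them. Input tags per BED peak at the 6 genes averaged 0.852 for replicate 1 and 0.767 for replicate 2, compared with 0.874 and 0.876 over the whole lists.

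**Figure D4:**
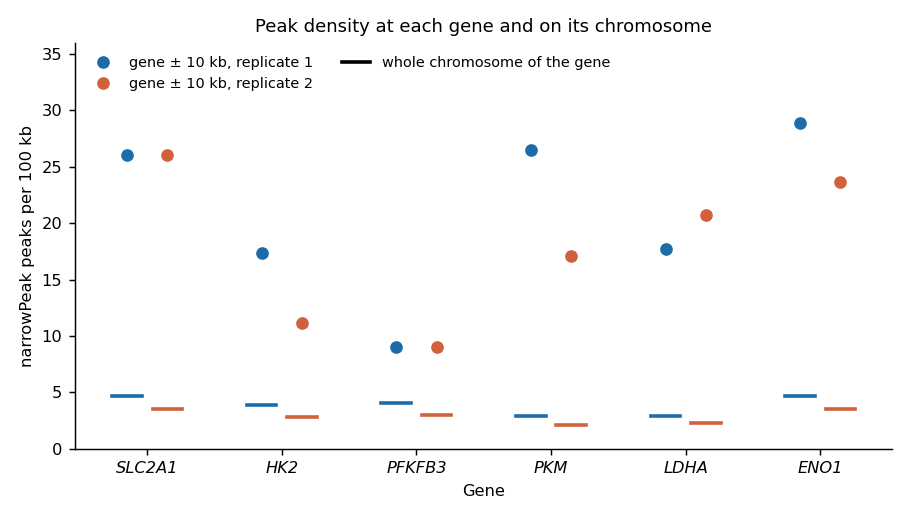
Peaks per 100 kb (y axis) in the window of each gene, with 10 kb on either side, for replicate 1 and replicate 2 (points), and on the whole chromosome of that gene (horizontal bars in the same colours). All points lie above their bars, with the smallest gap at *PFKFB3*.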

How the data were processed

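ChIP-seq peak lists of 2 HA-PRCC-TFE3 libraries and 1 input DNA library were used as deposited. The genes and lists were chosen with earlier results of these data known. Genome build hg19 comes from the submitters' processing notes. The last chromosome 1 peak ended at 249228915, beyond the hg38 length of 248956422, so no hg38 coordinates were joined to peaks. The planned list of other glycolysis genes needs an hg19 annotation and was not analysed here.

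The authors called peaks for each sample separately. The methods name MACS in Strand NGS with input DNA as comparison. The aligner and the handling of duplicates are not given in the sources used here. In the narrowPeak lists the authors deposited a fold enrichment ratio, −log10 p and q values, a score and the summit of each peak. In the deposited BED lists, whose header names are displaced, columns were read by position as tag count, signal in tags per 10000000, signal of scaled input tags, fold ratio over input and p-value. The score and focus fraction columns deposited by the authors were not used. The per-peak p-value columns were not used either.

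Library totals were the tag counts divided by the scaled signal. Input tags were recovered from tag count and fold. The lowest value, a constant below that of a single tag, was read as 0 tags. This was the case in 46.1% of BED peaks of replicate 1 and 46.9% of replicate 2. With these counted as 0, 100% of values came out whole within 2%. Peaks overlapping by at least 1 bp were merged into regions. Described individually were all promoter regions and the 3 shared regions per gene with the highest lower-of-both fold. Matched BED peaks, mutually nearest and overlapping, were tested with a two-sided exact binomial test (Python 3.11.15, pandas 2.3.3, numpy 2.4.6, scipy 1.17.1, figures with matplotlib 3.10.9). It was checked on simulated data with large differences, placed only at peaks with many tags. How well the test finds smaller differences, or differences at peaks with few tags, was not measured. Alternatives were the BED lists, stricter q values, other windows and overlaps, and each replicate alone. The study calls the replicates biological, but the sources used here do not say whether they came from separate cultures. The binomial p-values allow for counting error only and estimate no spread between replicates. A difference between these libraries may be technical.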

Additional observations from a re-analysis of the deposited data

How the results depend on the processing

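Of 119 alternative values, 98 stayed within the limit set for their kind and 21 moved. For counts the limit was a factor of 1.5. The values are counts, densities, ratios and medians, which have no direction to turn. A q value below 1e-10 moved the most. It left 37 peaks in replicate 1, 30 in replicate 2 and 27 shared regions, by construction, and promoter peaks in both replicates in 4 genes, since *PFKFB3* had none at that limit. The mean density was 9.06 peaks per 100 kb with that limit, 15.0045 with q below 1e-05 and 13.1 with the BED lists, compared with 17.2 as reported. The ratio to the genome density, an alternative chosen after the data were examined, was 6.15 with q below 1e-10. The median fold enrichment of all peaks at the genes was 8.00144 in the narrowPeak lists and 56.8 in the BED lists, which define fold differently. Input tags per BED peak, 0.810 as reported, were 0.931 in the gene bodies alone and 0.872 with a flank of 5 kb. Leaving out either replicate gave 58 to 69 regions, 5 to 6 genes with a promoter peak, a density of 15.7 to 18.7, a density ratio of 5.19 to 5.86 and a median fold of 7.66 to 8.34. With the BED lists, *PKM* and *ENO1* each had 5 shared regions in place of 9. Without replicate 2, *HK2* and *PKM* each had 14 regions in place of 9. No paired analysis was possible because there was only 1 group of ChIP samples, and the input sample is unnumbered. With 7418533 tags in replicate 2, a peak missing from its list cannot be taken as absent.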

Other observations

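Several regions at different genes had the same deposited fold enrichment. In replicate 1, the *SLC2A1* promoter and the *LDHA* gene body region both stood at 24.0717, and regions of *HK2*, *PFKFB3* and *LDHA* stood at 12.3033.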
